A study of Mus musculus with 6 samples.

Results

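The 10 NF-kB genes described here comprised 4 subunit genes (Rela, Relb, Nfkb1 and Nfkb2) and 3 genes named for IkB proteins (Nfkbia, Nfkbie and Nfkbiz). The others were the deubiquitinase gene Tnfaip3, the ubiquitin ligase gene Birc3 and the coactivator gene Bcl3. All 10 were picked by symbol from the 54532 genes of a count table. Each symbol matched 1 gene, and all 10 passed the filter on low counts, which left 13874 genes. RNA came from untreated cells of 2208L, a transplantable mouse mammary tumour carried in Balb/c mice. The 3 CTC libraries were made from tumour cells grown out of the blood, by a route that the labels do not describe, and the 3 PT libraries from tumour cells enriched out of dissociated primary tumours. The labels match each PT library to the CTC library of the same number, and such a pair is called a mouse here. The design thus set blood-derived tumour cells against cells of the matched tumours. The CTC cells alone are described as propagated, so propagation and origin cannot be told apart. The ages of the mice and the enrichment method are not given in the labels.

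NF-kB is a family of dimeric transcription factors that IkB proteins hold in the cytoplasm. When a receptor such as those for TNF or IL-1 is engaged, the IkB kinase complex marks IkB for destruction and the dimer enters the nucleus, while a second branch through Ltbr and related receptors processes the Nfkb2 precursor into a partner for RelB. The dimers induce their own inhibitors, among them Nfkbia and Tnfaip3, so transcripts of these genes are widely read as a trace of pathway activity. In the mammary gland the pathway acts in the growth of alveoli during pregnancy, and tumour cells use it to make cytokines and to resist cell death.

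Many of these genes carry binding sites for the factor that they encode or restrain, and the promoters of 4 members are shown because these genes showed either the widest spread between libraries (Tnfaip3 and Nfkbia), the highest level (Nfkb2) or the clearest difference between groups (Bcl3). The windows are from RefSeq (GRCm38.p6), each at the outermost annotated start where a gene has several, and run from 250 bases before to 50 bases after the start, 5′ to 3′ along the gene. Capitals mark matches to the NF-kB consensus motif on either strand.
Tnfaip3, chr10:19015361-19015660, minus strand: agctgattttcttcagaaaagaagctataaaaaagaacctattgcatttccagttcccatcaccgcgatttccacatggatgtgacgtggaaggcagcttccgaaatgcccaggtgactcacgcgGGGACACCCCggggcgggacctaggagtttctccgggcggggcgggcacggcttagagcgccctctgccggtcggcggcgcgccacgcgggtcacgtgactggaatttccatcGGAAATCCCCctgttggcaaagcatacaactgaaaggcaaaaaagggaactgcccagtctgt
Nfkbia, chr12:55492598-55492897, minus strand: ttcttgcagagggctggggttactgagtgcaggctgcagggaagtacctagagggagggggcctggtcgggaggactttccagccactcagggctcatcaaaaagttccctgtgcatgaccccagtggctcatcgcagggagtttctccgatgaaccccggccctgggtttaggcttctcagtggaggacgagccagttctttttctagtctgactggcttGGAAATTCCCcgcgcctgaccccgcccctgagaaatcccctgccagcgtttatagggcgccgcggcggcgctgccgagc
Nfkb2, chr19:46304487-46304786, plus strand: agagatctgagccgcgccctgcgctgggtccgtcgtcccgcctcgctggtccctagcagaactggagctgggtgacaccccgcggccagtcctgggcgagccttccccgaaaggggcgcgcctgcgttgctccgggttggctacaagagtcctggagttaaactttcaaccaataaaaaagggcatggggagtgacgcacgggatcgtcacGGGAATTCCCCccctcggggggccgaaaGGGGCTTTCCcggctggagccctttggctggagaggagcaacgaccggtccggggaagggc
Bcl3, chr7:19822706-19823005, minus strand: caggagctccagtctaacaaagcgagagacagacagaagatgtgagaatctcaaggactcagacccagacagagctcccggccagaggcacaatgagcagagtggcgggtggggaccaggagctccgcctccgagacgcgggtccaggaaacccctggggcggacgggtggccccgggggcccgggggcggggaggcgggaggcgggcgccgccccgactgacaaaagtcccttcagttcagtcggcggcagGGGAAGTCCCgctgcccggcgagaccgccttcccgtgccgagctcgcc
The motif matched 2 times in the Tnfaip3 window, beginning 125 and 12 bases before the start, and 1 time in that of Nfkbia, 29 bases before it. The Nfkb2 window held 3 matches, of which 2 overlap and appear as 1 run of capitals, and the Bcl3 window held 1 match, from base 3 of the transcript. Tnfaip3 has a further window, with 0 matches, and Nfkb2 has 2 more, with 2 and 1, which overlap and share 1 of these matches. Windows were found for 7 members, 10 windows in all, and 5 of them (the 4 shown and Nfkbie) held at least 1 match in some window, while no match was found in those of Rela and Birc3. No window was matched to Relb, Nfkb1 or Nfkbiz. Of all 32851 windows of the same length, 4.51% held at least 1 match and 0.554% held at least 2, and of the 10 member windows 7 held at least 1. A match is a run of letters and was not tested as a binding site.

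Library totals ranged from 23845953 to 27897320 counts, and 3 counts, the limit that a count of 0 allows, corresponded to between 0.108 and 0.126 CPM, the unit of counts scaled to a common library size. Members had between 278 and 9022 counts in any library, and intervals given here cover the spread between libraries. The summed level of 6 epithelial marker genes was 5460 CPM in CTC replicate 1, 3560 in CTC replicate 2, 2150 in CTC replicate 3 and between 3800 and 4540 CPM in PT. The 12 leukocyte marker genes summed to between 4.45 and 23.5 CPM in CTC and between 1.45 and 5.45 CPM in PT. Most of the highest sum, in CTC replicate 2, was Csf1r. This gene was at 5.57, 20.3 and 0.196 CPM in CTC replicates 1, 2 and 3, with a PT maximum of 1.37 CPM. Cd68 ran from 3.17 to 4.51 CPM in CTC and from 1.08 to 3.39 CPM in PT. Among the other 10 markers the largest value was 0.421 CPM, for Cd79a in PT replicate 1. Ptprc had 0 counts in CTC replicates 2 and 3. Adgre1, Ly6g and Nkg7 were at 0 in all libraries, and Csf1r and Cd68 were the only leukocyte markers to pass the filter. The 8 fibroblast marker genes summed to between 9.32 and 58.6 CPM in CTC and between 17.9 and 71.7 CPM in PT, and the 6 endothelial marker genes to at most 3.62 CPM. Dcn, Pdgfra and Pdgfrb made up most of the fibroblast sum in every library. Col1a1 stayed at or below 1.78 CPM and Col1a2 at or below 0.842 CPM, and Lum was at 0. The part of any of these marker levels in the results below was not tested. In bulk RNA, fewer cells that express a gene and less RNA per cell cannot be told apart.

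The 4 subunit genes had log2 fold changes between -0.44 and 0.10, CTC minus PT, with intervals that include 0, whereas Bcl3 was lower in every CTC library and the feedback genes Tnfaip3, Nfkbia, Nfkbiz and Birc3 were far higher in CTC replicate 1 than elsewhere. In the quasi-likelihood test of edgeR, with p-values adjusted over all 13874 genes by Benjamini-Hochberg, 0 of the 10 members passed at 0.05, and neither did any other gene (0%, smallest adjusted p = 0.611). At an unadjusted p under 0.05 there were 2 members, Bcl3 and Tnfaip3, against 6.62% of all genes (919). In limma-voom and in DESeq2 without the pairing of mice 0 members passed, although DESeq2 called 91 genes. DESeq2 with the replicate number as a block called 1 member, Bcl3, against 1.87% of its genes. The log2 fold change was above 0 for 6 members and below 0 for 4, with a median of 0.07 against 0.05 over all genes tested. This median turned to -0.23 without CTC replicate 1 and to -0.04 without PT replicate 3, and was 0.32 without PT replicate 1 and 0.27 without CTC replicate 3. The groups did not overlap for 1 of the 10, Bcl3, against 12.1% of all genes.

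**Figure D1:**
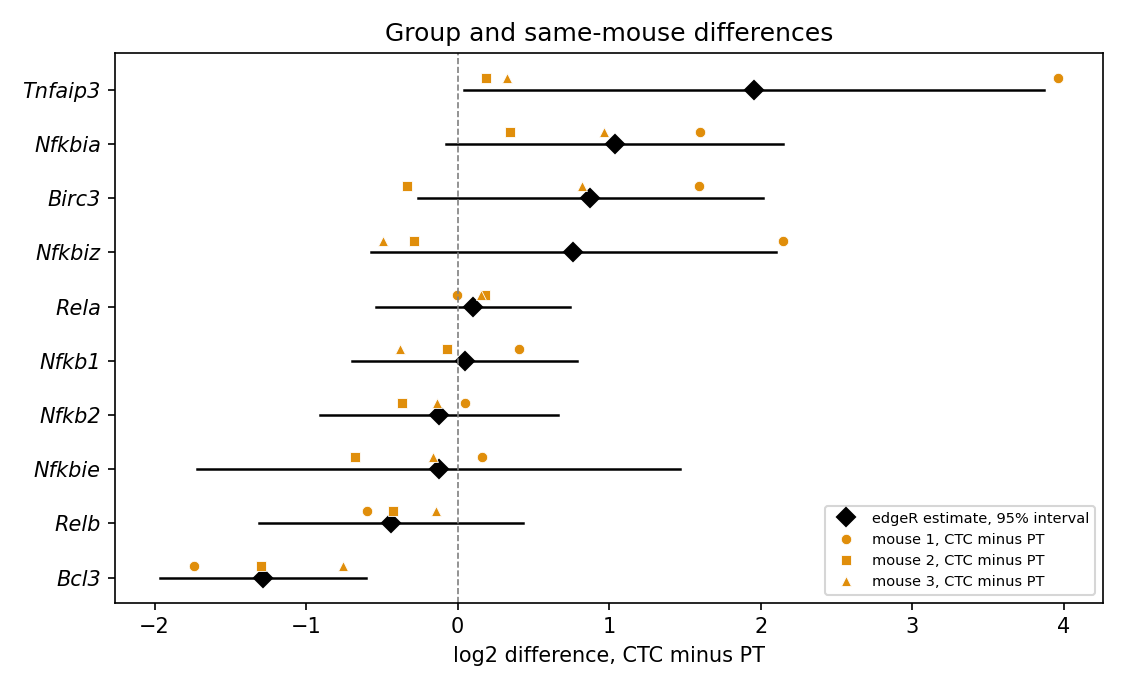
The horizontal axis gives log2 differences, CTC minus PT, for each of the 10 genes. Diamonds with lines are edgeR estimates with 95% intervals and orange marks are the differences within each of the 3 mice; Bcl3 lay below 0 in all 3 mice and the mark for mouse 1 stood furthest to the right for Tnfaip3, at 3.96.

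The subunit genes Rela and Nfkb1, which encode the classical pair of DNA-binding partners, differed least between the groups. Rela (ENSMUSG00000024927, chromosome 19, 5637483 to 5648130) was at 189, 166 and 135 CPM in CTC replicates 1, 2 and 3 and at 189, 146 and 121 CPM in PT replicates 1, 2 and 3. Coordinates are those of the deposited table (GRCm38), and values of later genes follow the same order of libraries. The groups overlapped almost fully, and replicate 1 was highest and replicate 3 lowest in both. The log2 fold change was 0.10 (SE 0.28, 95% interval -0.54 to 0.74; edgeR adjusted p = 0.929). Its range over the 6 libraries, 0.64 on the log2 scale, was wider than that of only 8.36% of genes tested. Nfkb1 (ENSMUSG00000028163, chromosome 3, 135584655 to 135691547), whose precursor also acts as an inhibitor, was at 211, 148 and 98.7 CPM in the CTC libraries, against 159, 155 and 128 CPM in the PT libraries. The PT values lay inside the CTC range, and the log2 fold change was 0.05 (SE 0.32, 95% interval -0.69 to 0.79; edgeR adjusted p = 0.977).

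Of the genes of the second branch, Nfkb2 overlapped between the groups, and Relb was lower in the CTC library of each pair without passing the test. Nfkb2 (ENSMUSG00000025225, chromosome 19, 46304737 to 46312090) was at 320.3, 188 and 169.8 CPM in the CTC libraries, against 309, 243 and 187 CPM in the PT libraries. Replicate 1 was highest in both groups, and the log2 fold change was -0.12 (SE 0.34, 95% interval -0.91 to 0.66; edgeR adjusted p = 0.929). The gene Psd overlaps it on the opposite strand with 435 to 1087 counts, against at least 4341 for Nfkb2, and reads from their shared part could not be told apart. Relb (ENSMUSG00000002983, chromosome 7, 19606217 to 19629438) was at 40.9, 32.1 and 24.3 CPM in the CTC libraries, against 62.0, 43.2 and 26.8 CPM in the PT libraries. Its CTC library was the lower one in all 3 mice, by 0.60, 0.43 and 0.14 on the log2 scale, but the groups overlapped and the log2 fold change of -0.44 had a 95% interval from -1.31 to 0.43 (edgeR adjusted p = 0.791). Agreement in sign over 3 pairs cannot reach p under 0.05 in an exact test. The share of all genes with such agreement was not counted, here or for later genes.

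Per kilobase of the deposited gene length, Nfkb2 and Rela stood highest in both groups and Birc3 lowest. That length was 12061 bases for Nfkb1 and 2716 for Rela, so the order of genes depends on it. The mean CPM of Nfkb1 and Rela was alike, at 152 and 163 in CTC and 148 and 152 in PT. As reads per kilobase of gene length, scaled to library size (RPKM), Nfkb2 was at 68.7 ± 25.0 in CTC and 74.9 ± 18.6 in PT, and Rela at 60.2 ± 10.03 in CTC and 56.0 ± 12.7 in PT (SD, n = 3 per group). Birc3 was at 5.70 ± 3.80 RPKM in CTC and 3.11 ± 0.642 RPKM in PT. The order between them differed by group. Nfkbia came next in CTC at 43.2 ± 24.4 RPKM, followed by Tnfaip3 at 19.0 ± 20.8 RPKM and Nfkbiz at 14.7 ± 12.6 RPKM, and CTC replicate 1 alone was at 70.6, 42.9 and 29.1 RPKM for these genes. In PT the third place was held by Bcl3 at 22.8 ± 5.46 RPKM, which was eighth in CTC at 9.34 ± 1.36 RPKM, and Nfkbia was at 21.0 ± 8.16 RPKM. Tnfaip3 was ninth in PT at 4.90 ± 3.04 RPKM. Nfkb1 was at 12.6 ± 4.66 and 12.2 ± 1.39 RPKM, Nfkbie at 9.79 ± 7.95 and 10.7 ± 6.42 RPKM, and Relb at 8.34 ± 2.14 and 11.3 ± 4.54 RPKM in CTC and PT. With the 6 libraries ordered by their joint mean, the ranges of every 2 neighbouring genes overlapped, although Relb was above Birc3 in 6 of 6 libraries and Rela above Nfkbia in 5 of 6.

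**Figure D2:**
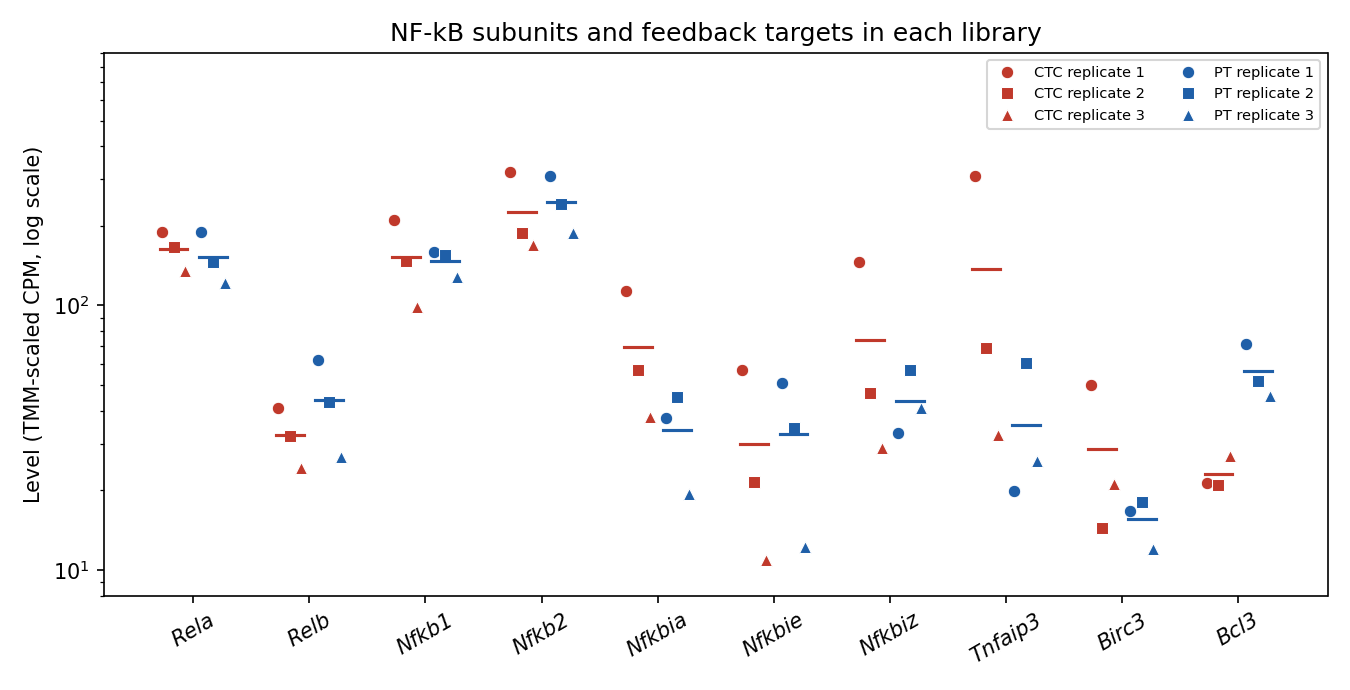
Each mark is the TMM-scaled CPM of 1 library on a log axis, for CTC in red and PT in blue, with circles, squares and triangles for replicates 1, 2 and 3 and short lines for the means of 3 libraries; marks of replicates are set side by side. CTC replicate 1 stood above the other 5 libraries for Tnfaip3, Nfkbiz, Nfkbia and Birc3, and all CTC marks lay below all PT marks for Bcl3.

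The inhibitor gene Nfkbia, which encodes IkB-alpha and is the best known feedback target of the pathway, was higher in the CTC library of every mouse. Nfkbia (ENSMUSG00000021025, chromosome 12, 55489410 to 55492647) was at 114, 57.1 and 37.9 CPM in the CTC libraries, against 37.4, 44.9 and 19.3 CPM in the PT libraries. CTC replicates 1 and 2 lay above all PT libraries, while CTC replicate 3 lay below PT replicate 2. The same-mouse differences were 1.6, 0.35 and 0.97 on the log2 scale, and as for Relb such agreement in sign was not counted over all genes. The log2 fold change was 1.04 (SE 0.48, 95% interval -0.07 to 2.15; edgeR adjusted p = 0.726). Without CTC replicate 1 it was 0.49.

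Nfkbie and Nfkbiz, the other genes of the set named for IkB proteins, were both highest in CTC replicate 1 and lowest in CTC replicate 3. PT replicate 1 was high for Nfkbie and low for Nfkbiz. Nfkbie (ENSMUSG00000023947, chromosome 17, 45555703 to 45563169), which encodes IkB-epsilon, was at 57.1, 21.5 and 10.9 CPM in the CTC libraries, against 51.1, 34.4 and 12.2 CPM in the PT libraries. It was highest in replicate 1 and lowest in replicate 3 of both groups, and its log2 fold change of -0.13 had a 95% interval from -1.72 to 1.47 (edgeR adjusted p = 0.969). Nfkbiz (ENSMUSG00000035356, chromosome 16, 55811375 to 55838899) encodes IkB-zeta, a nuclear family member that promotes transcription of a subset of targets. Its level was 146, 46.6 and 29.0 CPM in CTC and 32.9, 56.9 and 40.8 CPM in PT, so that CTC replicate 1 stood alone and the other 2 CTC libraries lay below the PT libraries of the same mice. The log2 fold change of 0.76 (SE 0.58; edgeR adjusted p = 0.772) was -0.20 without CTC replicate 1.

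Tnfaip3 showed the widest range of the members. It encodes A20, an enzyme that removes ubiquitin chains from signalling complexes and so ends the response. Tnfaip3 (ENSMUSG00000019850, chromosome 10, 19000910 to 19015657) was at 309.7, 69.0 and 32.3 CPM in the CTC libraries, against 19.8, 60.5 and 25.8 CPM in the PT libraries. CTC replicate 1 was 9.59 times the median of the other 5 libraries, and PT replicate 1, from the same mouse, was the lowest of all. The summed epithelial markers were highest in CTC replicate 1, at 5460 CPM, and next highest in PT replicate 1, at 4540 CPM. Krt8 alone gave 3006 CPM of the sum in PT replicate 1. By the median deviation from the mean of all libraries, these markers were at 0.49 in CTC replicate 1 but at -0.29 in PT replicate 1. The part of these markers in the Tnfaip3 values was not tested. The same-mouse differences of Tnfaip3 were 3.96, 0.19 and 0.33 on the log2 scale, all above 0. The log2 fold change was 1.95 (SE 0.83, 95% interval 0.04 to 3.87; unadjusted p = 0.0464, edgeR adjusted p = 0.726), and 0.52 without CTC replicate 1. With no filter on low counts edgeR called it (adjusted p = 0.0461) at the same log2 fold change, where 0.728% of genes were called.

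Birc3, which encodes the ubiquitin ligase cIAP2 of the TNF receptor complex, shared the high value in CTC replicate 1. Birc3 (ENSMUSG00000032000, chromosome 9, 7848699 to 7873186) was at 50.2, 14.4 and 21.1 CPM in the CTC libraries, against 16.6, 18.1 and 12.0 CPM in the PT libraries. CTC replicate 2 lay inside the PT range and CTC replicate 3 just above it, and the log2 fold change was 0.88 (SE 0.49, 95% interval -0.26 to 2.01; edgeR adjusted p = 0.726), or 0.19 without CTC replicate 1. Its neighbour and close relative Birc2, encoding cIAP1, was at 19.0, 7.21 and 17.6 CPM in the CTC libraries, against 10.6, 14.0 and 14.3 CPM in the PT libraries.

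Bcl3 was the member with the clearest difference between the groups. It encodes an IkB-like nuclear protein that binds the small subunits made from Nfkb1 and Nfkb2 and can turn them into activators. Bcl3 (ENSMUSG00000053175, chromosome 7, 19808462 to 19822770) was at 21.4, 21.0 and 27.0 CPM in the CTC libraries, against 71.5, 51.9 and 45.6 CPM in the PT libraries. Every CTC library lay below every PT library, as was so for 6.16% of all genes, and the spread within CTC was small at 23.1 ± 3.35 CPM (SD, n = 3) against 56.3 ± 13.5 CPM in PT. The level in PT was 2.44 times that in CTC, with same-mouse differences of -1.74, -1.30 and -0.75 on the log2 scale. The log2 fold change was -1.28 (SE 0.29, 95% interval -1.96 to -0.61; unadjusted p = 0.00245). This did not pass over all genes in edgeR (adjusted p = 0.726) or in DESeq2 (adjusted p = 0.115), while the replicate block in DESeq2 brought it past the threshold (adjusted p = 0.0385). The antisense genes Gm16174 and Gm16175 overlap it with at most 22 counts.

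Bcl3 and Relb lie on the same stretch of chromosome 7, where many genes were lower in CTC. Around each of them 39 tested protein-coding genes lay within 2 Mb on either side, and their median log2 fold change was -0.60. For 14 of the 39 (35.9%) every CTC library lay below every PT library, against 6.16% of all genes. Their median deviation from the mean of the 6 libraries was -0.46, -0.13 and -0.19 on the log2 scale in CTC replicates 1, 2 and 3 and 0.62, 0.20 and 0.11 in PT. With these medians subtracted, the deviations of Bcl3 were -0.27, -0.63 and -0.21 in CTC and 0.39, 0.34 and 0.25 in PT. Those of Relb were 0.64, -0.05 and -0.39 in CTC and 0.15, 0.05 and -0.54 in PT. Of the nearest genes, Cblc and Pvr beside Bcl3 overlapped between the groups, and Clasrp and Clptm1 beside Relb were lower in every CTC library. The part of the region in the Bcl3 difference was not tested.

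The median of the neighbours of Tnfaip3, Nfkbiz, Nfkbia and Birc3 was also above 0 in CTC replicate 1, and below the value of the gene. A median over many genes varies less than 1 gene, so no result is read from this gap. CTC replicate 1 was the highest library for 6 of 16, 8 of 14, 11 of 19 and 7 of 11 neighbours in that order, against 24.6% of all genes. Tnfaip3 deviated by 2.55 from its mean there and the median of 16 neighbours by 0.28. For Nfkbiz the values were 1.55 and 0.49 (14 neighbours), for Nfkbia 1.34 and 0.42 (19 neighbours) and for Birc3 1.36 and 0.53 (11 neighbours). Nfkb1 differed from these, since it deviated by 0.53 in CTC replicate 1 while the median of its 8 neighbours deviated by 1.13. Around Nfkb2 the 54 neighbours went the other way in CTC replicate 1, at -0.31 against 0.48 for the gene. The same was so for Nfkbie, at 1.15 in that library against -0.21 for the median of its 51 neighbours.

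**Figure D3:**
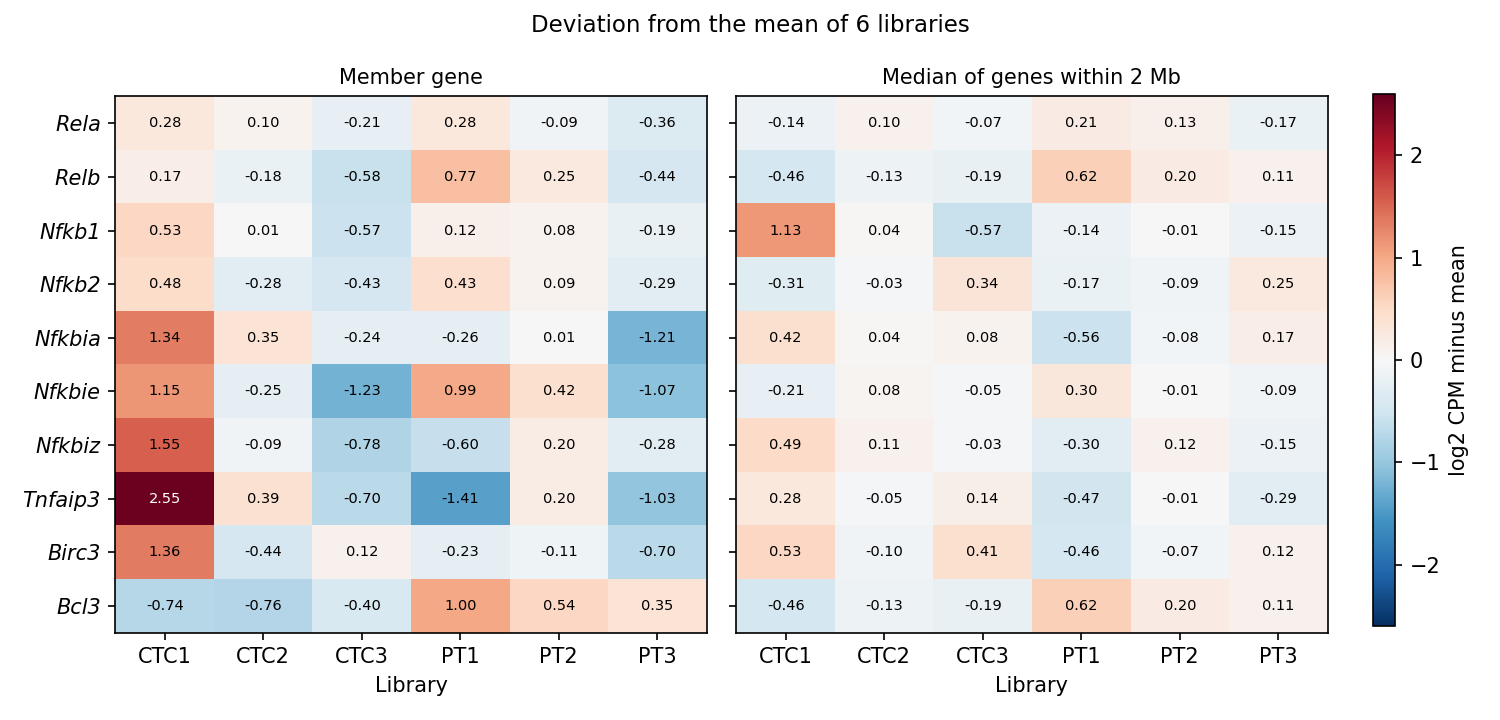
Both panels show log2 CPM minus the mean over the 6 libraries, with libraries in columns and genes in rows, for the gene itself on the left and for the median of tested protein-coding genes within 2 Mb on the right. The left panel reaches 2.55 for Tnfaip3 in CTC replicate 1, where the right panel shows 0.28, and the row of Bcl3 is below 0 in CTC and above 0 in PT in both panels.

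CTC replicate 1 was the highest library for 7 of the 10 members, with PT replicate 1 highest for the other 3 (Rela, Relb and Bcl3). Over all genes tested CTC replicate 1 was highest for 24.6% and PT replicate 1 for 20.4%. Epithelial marker genes were highest in CTC replicate 1 for 4 of 6, and the part of this in the members' values was not tested. Of the interferon response genes, 17 of 18 were highest in CTC replicate 3. There 0 of the 10 NF-kB genes had their highest value, against 14.1% of all genes. The members' median deviation was 0.84 in CTC replicate 1, -0.14 in CTC replicate 2 and -0.50 in CTC replicate 3, and it was 0.20, 0.14 and -0.40 in PT replicates 1, 2 and 3. The medians of the groups overlapped.

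The rest of the pathway was described with 7 lists of 96 genes, of which 85 were tested and 0 passed in either direction in edgeR. At an unadjusted p under 0.05 there were 9 of the 85, against 6.62% of all genes (919). The log2 fold change was above 0 for 57 of the 85 and below 0 for 28, with a median of 0.17. The groups lay apart for 11.8% of them, near the 12.1% of all genes. CTC replicate 1 was the highest library for 32 (37.6%), against 24.6% of all genes. Over all 13874 genes tested, 7504 had a log2 fold change above 0, and the median was 0.05.

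Receptor genes were divided. Of 11 tested, 2 had groups that lay apart, both lower in CTC, against 6.16% of all genes lower without overlap. Of 11 tested receptor genes 0 passed, with 5 above 0 and 6 below, and a median log2 fold change of -0.08. Ltbr, the lymphotoxin-beta receptor of the second branch, was at 105, 142 and 123 CPM in the CTC libraries, against 241, 198 and 162 CPM in the PT libraries, without overlap (log2 fold change -0.70, SE 0.27; edgeR adjusted p = 0.726). Tnfrsf1a, the main TNF receptor, was at 57.1, 96.4 and 121 CPM against 200.5, 138 and 132 CPM, also without overlap (log2 fold change -0.78; edgeR adjusted p = 0.726).

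Among 17 tested adaptor and ubiquitin ligase genes 0 passed and the median log2 fold change was 0.03, with 10 above 0 and 7 below. Ube2n, the conjugating enzyme for the ubiquitin chains that recruit the kinases, was at 165, 140.1 and 122 CPM in the CTC libraries, against 80.4, 104 and 91.0 CPM in the PT libraries. Traf3, which restrains the second branch, was at 79.9, 59.1 and 57.2 CPM against 35.6, 37.4 and 54.5 CPM, and Irak4, a kinase of IL-1 receptor signalling, at 17.6, 18.6 and 19.5 CPM against 12.0, 16.7 and 16.5 CPM. Every CTC library lay above every PT library for these 3 of 17 genes, and for 825 of all 13874 tested. Their log2 fold changes were 0.64, 0.62 and 0.30, with edgeR adjusted p-values of 0.726, 0.726 and 0.815. Fadd, which couples death receptors to caspases, was lower in every CTC library, as were 6.16% of all genes. It was at 17.3, 20.9 and 17.7 CPM in the CTC libraries, against 31.3, 25.8 and 31.9 CPM in the PT libraries (log2 fold change -0.67; edgeR adjusted p = 0.726).

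For the IkB kinase complex and upstream kinases 12 of 13 genes had a log2 fold change above 0, with a median of 0.47, and 0 passed. Ripk1, a kinase of the TNF receptor complex, was nearly constant in CTC at 50.2, 48.5 and 49.6 CPM and lower in each PT library, at 27.7, 41.6 and 37.2 CPM (log2 fold change 0.48; edgeR adjusted p = 0.726). Every CTC library lay above every PT library for this 1 of 13 genes, and for 825 of all 13874 tested. The median of this list was 0.20 without CTC replicate 1 or without PT replicate 1 and 0.10 without replicate 1 of both groups. Of 5 other Rel and IkB genes 2 lay above 0 and 3 below, with Nfkbib, which encodes IkB-beta, at 44.6, 43.0 and 28.6 CPM in CTC and 73.3, 68.8 and 37.1 CPM in PT. Nfkbil1, an IkB-like gene of the same list, was at 14.6, 15.7 and 12.9 CPM against 19.4, 25.2 and 11.6 CPM, and both overlapped between the groups.

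Of 10 tested negative regulators outside the set 8 lay above 0 and 0 passed, with a median log2 fold change of 0.38 that was 0.15 when CTC replicate 1 was left out. Zc3h12a, encoding an RNase that degrades inflammatory transcripts, was at 80.2, 25.8 and 21.9 CPM in the CTC libraries, against 18.6, 17.9 and 13.9 CPM in the PT libraries. Otud7b, a deubiquitinase that acts on Traf3, was at 150.3, 123 and 146 CPM against 70.4, 97.9 and 78.4 CPM. Every CTC library lay above every PT library for these 2 of 10 genes, and for 825 of all 13874 tested. Their log2 fold changes were 1.35 (SE 0.52) and 0.77 (SE 0.25), with edgeR adjusted p-values of 0.726.

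Transcripts of the ligands were scarce apart from 1 gene in 1 library: all 10 ligand genes summed to 110 CPM in CTC replicate 1 and to at most 14.6 CPM in any other. Of them 6 were tested and 0 passed, with a median log2 fold change of 0.01. Leaving out 1 library moved this median between -0.36 (PT replicate 3) and 0.87 (PT replicate 1), and with the replicate block it was 0.23. Tnf was at most at 2.32 CPM, in PT replicate 2, and had 0 counts in PT replicates 1 and 3, which allows up to 0.110 and 0.126 CPM. Il1a, which encodes the IL-1 receptor ligand IL-1 alpha, had 2868, 80 and 1 counts in the CTC libraries and 7, 89 and 3 counts in those of PT, and its 102 CPM in CTC replicate 1 made up most of that sum. Its log2 fold change was 4.64 (SE 2.19; edgeR adjusted p = 0.726). Tnfsf12, encoding the ligand TWEAK, stayed at or below 6.18 CPM, and Il1b, which was not tested, at or below 2.52 CPM. Tnf and Il1b were named after their values were seen.

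Other transcriptional targets repeated the high values of CTC replicate 1 in part. Of 23 tested targets 17 had a log2 fold change above 0 and 0 passed, with a median of 0.58. Leaving out CTC replicate 1 brought this median to 0.01, leaving out PT replicate 2 brought it to 1.17, and with the replicate block it was 0.145. There were 10 of the 23 (43.5%) highest in CTC replicate 1, against 24.6% of all genes, and 5 highest in PT replicate 2. Ptgs2, the inducible prostaglandin synthase, was at 1258, 126 and 48.1 CPM in the CTC libraries, against 142, 111 and 10.8 CPM in the PT libraries. Cxcl5, a neutrophil chemokine, was at 1728, 175 and 262 CPM against 145, 562 and 229 CPM. Lcn2, which encodes an iron-binding lipocalin, was lowest in CTC replicate 1, at 252, 728 and 777 CPM against 615, 4158 and 1198 CPM (log2 fold change -1.76, SE 0.74; edgeR adjusted p = 0.726). The 27 listed targets summed to 6090, 2430 and 2620 CPM in CTC but to 2480, 6980 and 2910 CPM in PT. Ptgs2, Cxcl5 and Lcn2 were chosen after their values were seen. Bcl2l1, which encodes the survival protein Bcl-xL, went the other way without overlap, at 119, 131 and 123 CPM in the CTC libraries, against 172, 275 and 147 CPM in the PT libraries (log2 fold change -0.67; edgeR adjusted p = 0.726). Every CTC library lay below every PT library for this 1 of the 23 tested targets, against 6.16% of all genes.

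**Figure D4:**
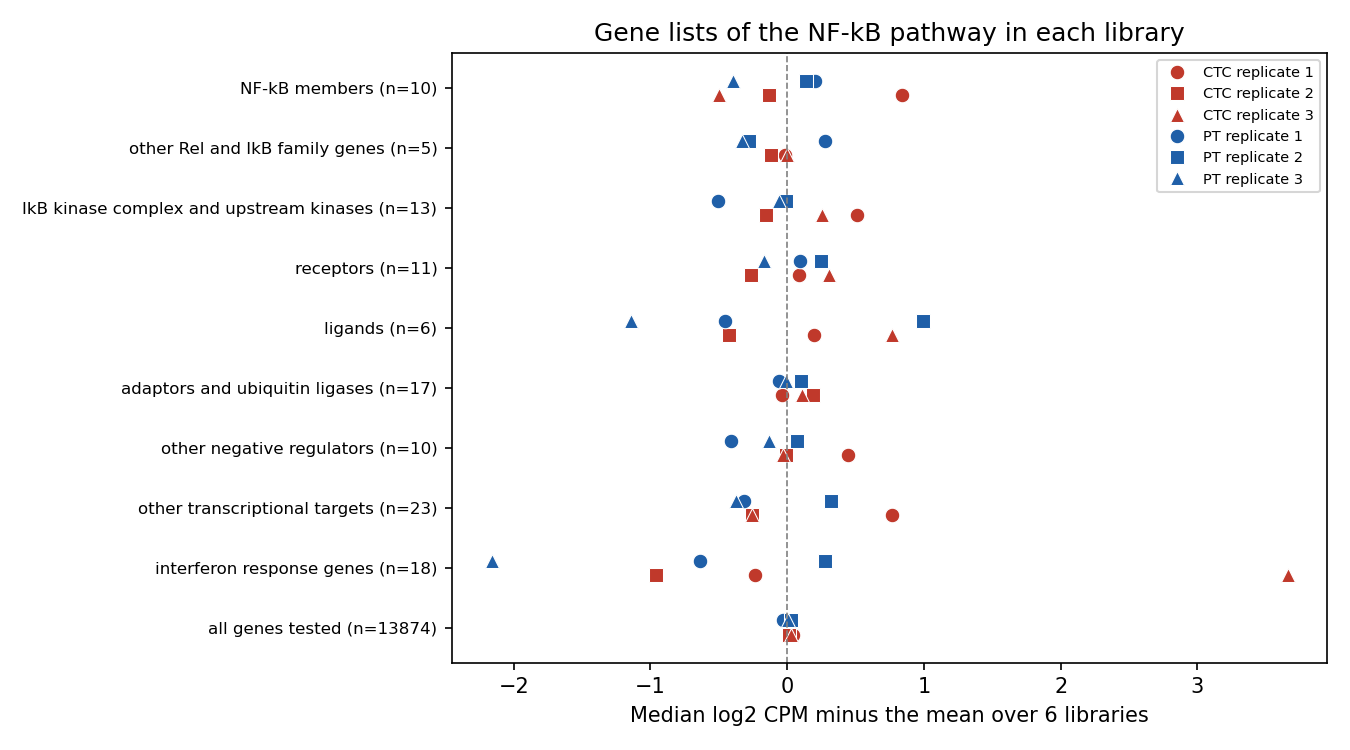
Each mark is the median over a list of log2 CPM minus the mean over the 6 libraries, in CTC (red) and PT (blue), with circles, squares and triangles for replicates 1, 2 and 3. CTC replicate 1 is furthest right for the members (0.84) and for the other targets (0.76), and CTC replicate 3 for interferon response genes (3.66).

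Genes whose profile over the 6 libraries was most like that of a member were sought for the 3 members with the widest range, as the smallest root mean square distance on the log2 scale. For Tnfaip3 these were Pde4a, Filip1l and Mpv17l, at distances of 0.26, 0.29 and 0.30. Filip1l, for instance, was at 81.5, 17.9 and 12.3 CPM in the CTC libraries, against 8.16, 19.3 and 6.27 CPM in the PT libraries. Among the nearest to Nfkbia were Pkp2 (a desmosomal plaque gene) and Camk2d, at 0.16 and 0.19, and the nearest to Nfkbie were Pax8, Ddah2 and Gm20605, at 0.21, 0.22 and 0.30. Pax8 and Gm20605 stayed below 1 CPM. Among the members themselves the closest pair was Nfkb1 and Nfkb2, at 0.19, and the most distant Tnfaip3 and Bcl3, at 1.83. The search covered the 12019 protein-coding genes tested, and likeness over 6 libraries is a description without a test.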

How the data were processed

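Libraries were made from 100 ng of total RNA with an mRNA kit, per the labels' protocols. The authors deposited raw read counts per Ensembl gene, with coordinates and a gene length. HISAT2 and the builds GRCm38 and mm10 appear in the submitters' processing notes, while versions, the read counter and strand handling are not given in those notes.

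Counts were tested with edgeR 4.0.16 in R 4.3.3 (glmQLFit and glmQLFTest, filterByExpr by group, TMM, no block), with Benjamini-Hochberg adjustment over all 13874 genes tested and a threshold of 0.05. The F statistic gave the standard errors. CPM and RPKM were TMM-scaled, with a prior count of 2 for log2 CPM. DESeq2 1.42.0 and limma-voom (limma 3.58.1) served as alternatives, beside other scalings, filters, the replicate block and left-out libraries. The labels match libraries of one number; across genes, the deviations of such pairs from the means of their groups had correlations of -0.015, 0.157 and 0.298, and the pairing was taken from the labels.

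The members and lists were chosen with earlier results of these data known. Named genes were the members; from each pathway list, up to 3 genes a direction that had groups apart and a mean log2 CPM of 2 or more, or else the 2 with the highest RPKM; the genes next to a member; and the 3 nearest profiles of the 3 widest-ranging members. Some items that this rule names are not reported here. Libraries of a group are labelled as biological replicates, and p-values measure the spread between them. Intervals and the limit for a count of 0 cover no amplification error.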

Additional observations from a re-analysis of the deposited data

How the results depend on the processing

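The count of genes called was 0 in edgeR and limma-voom, against 91 in DESeq2, 253 in DESeq2 with the replicate block and 199 in edgeR without a filter. Members called numbered 1 in each of the last 2 (Bcl3 with the block, Tnfaip3 without a filter) and 0 in the other 15 alternatives. The cause was not tested. In edgeR the replicate block called 0 genes and left the log2 fold change of Bcl3 at -1.27 and that of Tnfaip3 at 1.35, and it changed no other call. Members whose groups did not overlap numbered from 1 to 4 when libraries were left out. Fewer libraries make separation easier, and the share over all genes was not counted in these settings, so no result is read from the rise. Tnfaip3 and Nfkbia joined Bcl3 without CTC replicate 3 or PT replicate 2, Birc3 without CTC replicate 2 and Relb without PT replicate 3. Bcl3 stayed below 0 in 17 of 17 alternatives (-1.55 to -1.0), as did Relb, and Tnfaip3, Nfkbia and Birc3 stayed above 0. Nfkb1 changed sign with the replicate block (-0.0148), in DESeq2 with the block (-0.0405) and in limma-voom (-0.0146). With 1 library left out, log2 fold changes ran from -0.259 to 0.278 for Nfkb1, -0.0407 to 0.291 for Rela, -0.462 to 0.0717 for Nfkb2, -1.01 to 0.355 for Nfkbie and -0.201 to 1.14 for Nfkbiz. With 1 pair left out they ran from -0.184 to 0.185 for Nfkb1, -0.501 to 0.0689 for Nfkbie and -0.35 to 1.22 for Nfkbiz. Near-zero list medians changed sign when 1 library was left out, from -0.195 to 0.0598 for receptors and from -0.0843 to 0.122 for adaptors. For other Rel and IkB genes the median ran from -0.632 to -0.123. Median deviations of neighbours kept their sign with windows of 1 or 5 Mb and with neighbours of an average log2 CPM of at least 3. Around Nfkb1 in CTC replicate 3 the median was -0.571, against -0.191, -0.254 and -0.182 in these alternatives, and around Birc3 in CTC replicate 1 it was 0.529, against 0.244 with the last. Around Nfkb2 in CTC replicate 1 it ran from -0.321 to -0.149. Windows were varied for the library in which each member deviated most, which for Nfkb1 and Nfkbie was not CTC replicate 1. Depth was at least 278 counts per member and library, and there were 3 libraries a group.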
